A study of Mus musculus with 6 samples.

Results

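Costimulatory and dendritic maturation markers were examined as 8 genes, Cd40, Cd80, Cd86, Cd83, Fscn1, Itgax, Cytip and Icam1, on 6 Affymetrix arrays of mouse peritoneal exudate cells. Their members were all probe sets whose platform annotation gives one of these symbols, which made 12 of the 12422 probe sets on the array that are not controls, and the genes were 8 of 6767 named genes with a measurable signal. The cells, named peritoneal macrophages in other labels, were wild type (WT), NF-IL6 knockout (KO) or NF-IL6 KI(LAP) knock-in (KI), and the strain of all was given as C57BL/6. Cebpb encodes NF-IL6, better known as C/EBPβ, a transcription factor of the leucine-zipper class whose activating form is called LAP. Cells of every genotype were studied untreated and after lipopolysaccharide with interferon-γ (LPS+IFN-gamma), for 12 h in KO and KI cells and for a time the label does not state in WT cells. The labels do not give the age of the mice, the structure of the knock-in allele or the number of animals behind an array. A single array (n = 1) stood for each genotype in each state, so no value below has a replicate error, and the number of arrays limits the precision of every comparison.

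T cell activation by an antigen-presenting cell needs antigen on MHC and a second, costimulatory signal. CD80 and CD86 deliver that signal through CD28 on the T cell, and CD40 on the presenting cell receives a return signal from CD40 ligand that raises its costimulatory molecules further. ICAM-1 holds the contact by binding the integrin LFA-1. CD83 marks mature dendritic cells, in which the actin bundler fascin and the adhesion regulator encoded by Cytip also increase, while CD11c, encoded by Itgax, is the integrin used to identify dendritic cells. Activated macrophages share several of these molecules.

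The values are MAS5 signals, a linear intensity per probe set that cannot be compared between probe sets. A signal of 97.99, the 40th percentile of all signals, served as the floor under which a value was not read. Where a gene had 2 probe sets, the one with the higher mean log2 signal represented it, and 11 of the 12 probe sets passed the floor on at least 1 array. Cebpb, the targeted gene, had signals of 5492 and 9329 on the untreated and stimulated WT arrays, 2284 and 5890 on the KI arrays, and 12.7 and 59.0, under the floor, on the KO arrays. The deposited median signal lay between 131 and 185 on all arrays and was lowest on the KI arrays. Macrophage markers were present throughout, with 8 or 9 of 9 measured genes above the floor on every array. Their summed signal was 57339 and 48940 in WT, 57065 and 35820 in KO and 59263 and 39377 in KI cells, lowest on the stimulated KO array. Csf1r, Cd14 and Msr1 were lower on the stimulated KO and KI arrays than on the stimulated WT array. Adgre1 was at 5562, 6125 and 5450 on the stimulated WT, KO and KI arrays.

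Of the 8 genes, 4 rose after LPS with interferon-γ (Cd40, Cd86, Cd83 and Icam1) and 0 fell, in limma's additive fit of stimulation and genotype (6 arrays, Benjamini-Hochberg adjusted p under 0.05). Over all 9344 probe sets tested, 5.03% rose and 6.01% fell. The 8 genes were chosen with earlier results of these data known, so setting them beside these shares is a description and no test. The median log2 change of the 8 genes was 1.66, beside -0.12 over all probe sets. The remaining genes, Cd80, Cytip, Fscn1 and Itgax, did not pass the test, and the last 3 of these had different changes in the 3 genotypes. The error in this fit comes from how far the change varied between genotypes, with 2 residual degrees of freedom. limma then moderates it towards a trend with intensity over all probe sets, so an SE is not a gene's own spread alone. As no group has a replicate array, variation between animals or arrays is mixed into the error. Such variation cannot be told apart from true differences between genotypes in the change. All 4 calls ended without a filter on low signals (0 of 8), where 49 of 12422 probe sets rose, and without the untreated WT, the stimulated WT or the stimulated KO array (0 of 8), where 0 of the 8807, 9205 and 9271 probe sets tested rose by limma (1933, 1830 and 1366 had an unadjusted p under 0.05). Icam1 alone kept its call without the untreated KO array (45 of 9230 probe sets rose) and Cd40 alone without the stimulated KI array (36 of 9292), and Cd83 lost it without the untreated KI array (157 of 9269).

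**Figure D1:**
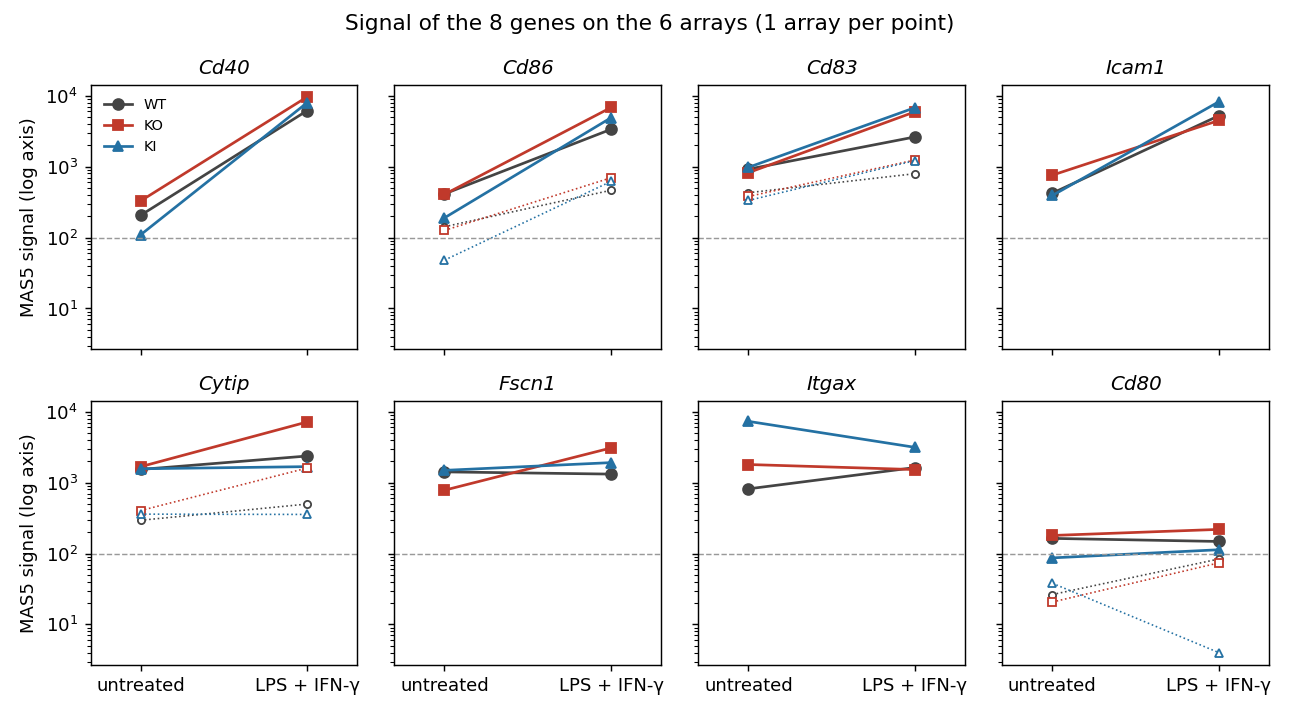
Signal of each gene (log axis, arbitrary MAS5 units) on the untreated and stimulated array of WT, KO and KI cells. Filled points and solid lines are the representative probe set, open points and dotted lines the gene's other probe set, and the dashed line is the floor of 97.99. Cd40, Cd86, Cd83 and Icam1 are higher after stimulation in all 3 genotypes, Cytip and Fscn1 are highest on the stimulated KO array, and Itgax is highest on the untreated KI array at 7301.

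CD40, the receptor for CD40 ligand, had the largest change of the 8. Its signal was 205 untreated and 6147 stimulated in WT cells, 327 and 9604 in KO cells, and 109 and 7955 in KI cells. Every stimulated array lay above every untreated one, and the untreated KI signal, just over the floor, was the lowest of the 6. The mean log2 change was 5.32 (SE 0.30, limma adjusted p = 0.00160), rank 19 from the top among 9344 probe sets. The signal was 29.9-fold higher with stimulation in WT, 29.3-fold in KO and 73.0-fold in KI cells. The larger KI fold came from both states, and more from the untreated one. KI was 1.88-fold below WT untreated and 1.29-fold above it stimulated.

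Of CD80 and CD86, the ligands of CD28 and CTLA-4, the gene of CD86 rose and that of CD80 did not pass the test. The representative Cd86 probe set gave 412 and 3358 in WT, 406 and 6816 in KO and 189 and 4889 in KI cells. Untreated and stimulated arrays did not overlap, and among stimulated arrays KO was the highest and WT the lowest. Cd86 rose by 3.93 on the log2 scale (SE 0.33, limma adjusted p = 0.00467), rank 46 from the top. Its second probe set gave the same order of stimulated arrays at 464, 696 and 619 in WT, KO and KI cells, with untreated signals of 142, 126 and 48.0, and also passed the test (2.28, SE 0.29, limma adjusted p = 0.0141).

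Cd80 was close to the floor on every array. Its representative probe set was at 163 and 148 in WT, 180 and 219 in KO and 86.8 and 113 in KI cells, so that the KI arrays were the lowest in each state and the untreated KI signal lay under the floor. The second Cd80 probe set was under the floor on all 6 arrays, with a highest signal of 83.8. The mean log2 change of 0.12 (SE 0.19, limma adjusted p = 0.726) did not pass the test, and the floor makes changes of so low a gene look smaller.

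CD83, an immunoglobulin-family protein of mature dendritic cells and activated lymphocytes, stabilises MHC class II and CD86 at the cell surface. Its signal was 919 and 2621 in WT, 821 and 5927 in KO and 976 and 6782 in KI cells. The untreated arrays were alike, and the stimulated KO and KI arrays were 2.26-fold and 2.59-fold above the stimulated WT array. Over the genotypes Cd83 rose by 2.39 on the log2 scale (SE 0.30, limma adjusted p = 0.0132). On the second Cd83 probe set stimulated WT was again the lowest, in smaller steps, and KO and KI were alike. It read 795 in stimulated WT cells, against 1241 in KO and 1216 in KI cells, 1.56-fold and 1.53-fold more. Its mean log2 change of 1.49 also passed (SE 0.25, limma adjusted p = 0.0272).

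Icam1, which encodes the ligand of LFA-1, was at 422 and 5226 in WT, 758 and 4476 in KO and 391 and 8227 in KI cells. All stimulated arrays were above all untreated arrays. KO had the highest untreated and the lowest stimulated signal of the 3 genotypes. Over the genotypes Icam1 rose by 3.53 on the log2 scale (SE 0.35, limma adjusted p = 0.00777), and the fold with stimulation was 12.4 in WT, 5.91 in KO and 21.0 in KI cells. As Icam1 rose in every genotype, the sequence before its start site is shown here, with matches to known recognition letters of stimulus-activated factors in capitals: GGANNTTCC for NF-κB, and TTCNNNGAA for the interferon-γ activated site (GAS). RefSeq promoter windows in build GRCm38.p6 were used for 5 of the 8 genes (Icam1, Cytip, Fscn1, Itgax and Cd80), and the 250 bases before the start were searched on both strands, also for GAAANNGAAA of the interferon-stimulated response element (ISRE), TTGCNNAA of C/EBP and TGANTCA of AP-1.
Icam1, chr9:21015690-21015939, plus strand: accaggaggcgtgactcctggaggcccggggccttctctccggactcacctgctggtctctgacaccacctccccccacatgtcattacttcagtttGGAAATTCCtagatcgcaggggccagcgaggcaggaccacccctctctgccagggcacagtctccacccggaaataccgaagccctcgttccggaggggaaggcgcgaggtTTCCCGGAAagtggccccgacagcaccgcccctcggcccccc
The NF-κB letters GGAAATTCC stood 153 to 145 bases before the start and the GAS letters TTCCCGGAA 42 to 34 bases before it, without overlap. Of 32851 RefSeq windows of the same length, 3.59% held the NF-κB letters and 7.02% the GAS letters. Such matches describe the sequence and show no binding in these cells.

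For Cytip, Fscn1 and Itgax the single arrays gave different changes with stimulation in the 3 genotypes. Cytip encodes a binding partner of cytohesin-1 that restrains integrin adhesion of leukocytes. Its signal was 1532 and 2370 in WT, 1674 and 7156 in KO and 1566 and 1679 in KI cells. The untreated arrays lay within 1.09-fold of WT, whereas the stimulated KO array was 3.02-fold above WT and 4.26-fold above KI. A second probe set gave 294 and 498, 403 and 1604, and 359 and 356 in the same order, so that only the stimulated KO array stood out on it as well. Averaged over genotypes, its log2 change was 0.94 (SE 0.39, limma adjusted p = 0.205), which did not pass. The mean change was 1.36 over WT and KO, where Cytip did pass. It was 0.37 over WT and KI and 1.10 over KO and KI, where it did not. Each of these fits has fewer arrays than the main one.

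Fscn1 encodes fascin, which bundles actin in the dendrites of mature dendritic cells. It was at 1416 and 1318 in WT, 781 and 3079 in KO and 1488 and 1913 in KI cells. The untreated KO array was the lowest and the stimulated KO array the highest of the 6. The difference in log2 change between KO and WT was 2.08, rank 30 from the top of 9344 probe sets, and came from both states: KO was 1.81-fold below WT untreated and 2.34-fold above it stimulated. The mean log2 change over genotypes was 0.75 (SE 0.41, limma adjusted p = 0.319). It was 1.17 without the WT arrays, where Fscn1 did pass the test. It was 0.13 without the KO arrays and 0.94 without the KI arrays, where Fscn1 did not pass. Cytip and Fscn1 had the most similar profiles of any 2 of the 8 genes, with a root mean square difference of 0.55 log2 between their centred values over the 6 arrays. Their upstream sequences are printed to set side by side these genes with alike signals.
Cytip, chr2:58160123-58160372, minus strand: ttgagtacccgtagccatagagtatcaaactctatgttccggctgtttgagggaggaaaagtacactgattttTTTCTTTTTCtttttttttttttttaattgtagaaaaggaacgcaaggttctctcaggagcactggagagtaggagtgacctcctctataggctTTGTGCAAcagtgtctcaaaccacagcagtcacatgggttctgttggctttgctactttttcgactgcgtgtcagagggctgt
Fscn1, chr5:142960105-142960354, plus strand: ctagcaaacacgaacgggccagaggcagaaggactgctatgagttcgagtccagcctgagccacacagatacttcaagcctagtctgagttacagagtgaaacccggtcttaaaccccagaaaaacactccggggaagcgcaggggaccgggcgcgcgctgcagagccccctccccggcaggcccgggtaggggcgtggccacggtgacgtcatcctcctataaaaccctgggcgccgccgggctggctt
The Cytip window held a match to the C/EBP letters (TTGTGCAA, on the opposite strand, 83 to 76 bases before the start) and to the ISRE letters (TTTCTTTTTC, also on the opposite strand, 177 to 168 bases before it). The Fscn1 window held a match to none of the 5 motifs. Over all RefSeq windows, 9.56% held the C/EBP letters and 2.98% the ISRE letters.

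Itgax encodes CD11c, the α chain of an integrin of dendritic cells and of some macrophages. It was at 816 and 1630 in WT, 1799 and 1526 in KO and 7301 and 3141 in KI cells. Both KI arrays were the highest in their state. Untreated KI cells were 8.95-fold above WT and 4.06-fold above KO, and stimulated KI cells 1.93-fold above WT and 2.06-fold above KO. The signal was 2.0-fold higher with stimulation in WT, 1.18-fold lower in KO and 2.32-fold lower in KI cells. The mean log2 change of -0.15 (SE 0.42, limma adjusted p = 0.842) averaged over these opposite directions, and was 0.014 with each array centred on its median and 0.38 without the KI arrays. The KI against WT effect over both states was 2.05 (SE 0.51, limma adjusted p = 0.224) and did not pass the test. Itgax showed the largest difference between genotypes in untreated cells among the 8 genes, so its upstream sequence follows, where the capitals mark the AP-1 letters TGAGTCA, present in 6.75% of all windows.
Itgax, chr7:128129300-128129549, plus strand: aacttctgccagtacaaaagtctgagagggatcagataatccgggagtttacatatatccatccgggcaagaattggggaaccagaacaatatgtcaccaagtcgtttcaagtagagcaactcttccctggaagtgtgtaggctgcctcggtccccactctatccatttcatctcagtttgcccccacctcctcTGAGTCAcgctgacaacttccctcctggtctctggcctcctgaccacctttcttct
Of the other windows searched, that of Cd80 also held a match to the AP-1 letters (TGATTCA, 42 to 36 bases before the start). Itgam, the α chain of Mac-1 and the gene next to Itgax in the RefSeq annotation, was at 474 and 722 in WT, 1563 and 728 in KO and 1263 and 349 in KI cells. Its untreated KO and KI signals were above the untreated WT signal, as for Itgax, but KI was the lowest of the 3 genotypes after stimulation. Itgb2, the β chain that both integrins share, was at 7374, 10892 and 16279 in untreated WT, KO and KI cells and at 12293, 9446 and 11658 after stimulation. The order of Itgb2 over untreated arrays was that of Itgax, in smaller steps. Itgam and Itgb2 belong to the adhesion list described further on, and their changes with stimulation did not pass the test (limma adjusted p = 0.366 and 0.974).

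Averaged over both states, 0 of the 8 genes passed limma's test for KO against WT, KI against WT or KI against KO. Over all 9344 probe sets 0%, 0.0107% and 0% passed, with 946, 1598 and 703 at an unadjusted p under 0.05. Of the 8 genes, 0, 1 (Itgax) and 2 (Itgax and Cd80) had an unadjusted p under 0.05 in the same 3 contrasts. Differences between genotypes are therefore given by size, with 1 on the log2 scale (2-fold) as the limit and without a p-value. In the change with stimulation, 4 genes reached +1 in WT cells (all probe sets 8.54%), 6 in KO cells (6.54%) and 4 in KI cells (5.58%). Cytip and Fscn1 were the additional genes in KO cells, at 2.10 and 1.98, and Itgax in WT cells was just under the limit at 0.998. Itgax was the gene that reached -1, in KI cells (-1.22; all probe sets 8.01%).

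**Figure D2:**
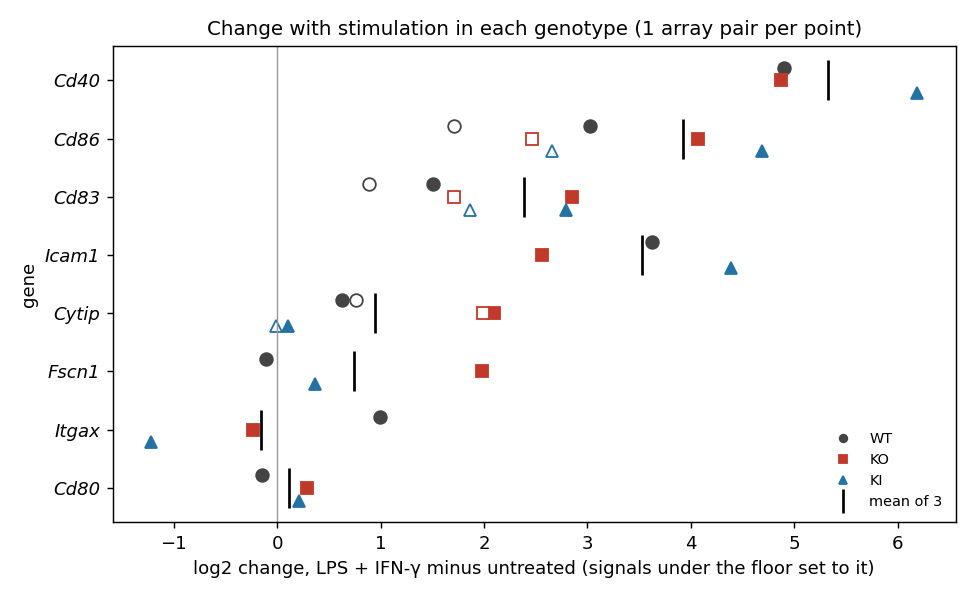
Log2 change with stimulation of each gene in WT (circles), KO (squares) and KI (triangles) cells, each from 1 pair of arrays. Filled points are the representative probe set, open points the other probe set, and the black bar is the mean of the 3 genotypes. KO lies apart from WT and KI for Cytip and Fscn1, and the 3 genotypes spread from -1.22 to 0.998 for Itgax.

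The change with stimulation was higher in KO than in WT by at least 1 for 4 of the 8 genes and lower for 2 (all probe sets 5.36% and 7.18%). The 4 were Fscn1 (2.08), Cytip (1.47), Cd83 (1.34) and Cd86 (1.04), and the 2 were Itgax (-1.23) and Icam1 (-1.07). Cd40 differed by -0.03. On their other probe sets Cytip remained past the limit at 1.23, and Cd83 and Cd86 stayed under it at 0.82 and 0.76. For KI against WT, 3 genes were higher (all probe sets 6.77%), namely Cd86 (1.66), Cd40 (1.29) and Cd83 (1.29), and Itgax was lower (-2.21; 8.87%). The difference for Cd40 was 0.37 with the floor at the 60th percentile and 0.82 with quantile normalization, which left 2 genes higher. On their other probe sets Cd86 and Cd83 were just under the limit, at 0.95 and 0.98. Both comparisons use the same WT arrays. For KI against KO, Icam1 (1.83) and Cd40 (1.32; 0.11 with the floor at the 60th percentile) were higher (5.07%), and Cytip (-2.00) and Fscn1 (-1.62) were lower (4.09%).

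Within stimulated cells, which leaves out the untreated signals, KO was above WT by at least 1 for Cytip (1.59), Fscn1 (1.22), Cd83 (1.18) and Cd86 (1.02), against 2.57% of all probe sets. On the other probe sets the same difference was 1.69 for Cytip, 0.64 for Cd83 and 0.58 for Cd86. In stimulated KI cells Cd83 was above WT (1.37, against 1.89% of all probe sets), with 0.61 on its other probe set. Against stimulated KO cells, KI was above for Itgax (1.04; 1.49%) and below for Cytip (-2.09; 2.76%). Within untreated cells the genes that differed by 1 were Itgax, Cd86 and Cd40. Itgax was above WT in KO (1.14; 6.3%) and in KI (3.16; 8.12%), and in KI also above KO (2.02; 2.84%). Untreated KI cells were below WT for Cd86 (-1.12; 10%) and below KO for Cd40 (-1.59) and Cd86 (-1.10; 5.36%). With the floor at the 60th percentile these 3 lower values were -0.72, -0.38 and -0.69, all under the limit in size. On the other Cd86 probe set untreated KI differed from WT by -0.54 and from KO by -0.36.

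**Figure D3:**
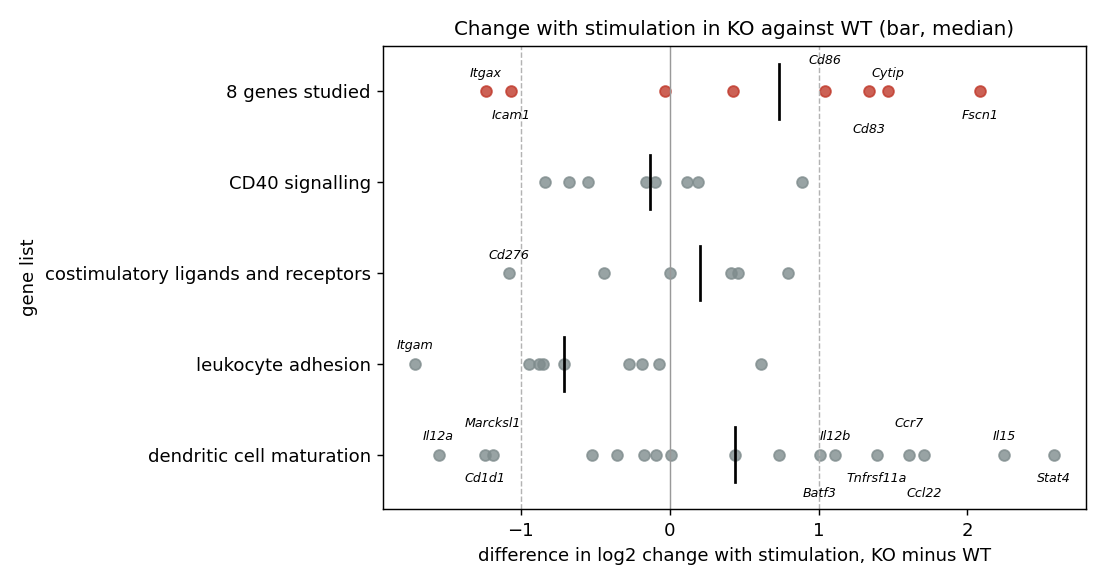
Difference between KO and WT in the log2 change with stimulation (x axis) for the 8 genes and for the 4 parts of a list of related genes (rows), 1 point per gene, with a bar at each median and gene names where the difference is at least 1. The 8 genes have 4 points above 1 and 2 below -1, and the dendritic maturation genes 7 and 3 (all probe sets 5.36% and 7.18%).

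Other genes of these pathways were taken from a list of 56, of which 46 had a probe set and 40 passed the floor. The list was drawn up with earlier results of these data known, so its counts are a description and no test. Of the 40, 16 rose and 0 fell with stimulation (all probe sets 5.03% and 6.01%), with a median log2 change of 0.71. In CD40 signalling 6 of 8 rose: Traf1, an adaptor of TNF-family receptors, by 4.40, Nfkb2, a subunit of the non-canonical NF-κB pathway, by 2.80, and Tnfaip3, the inhibitor A20, by 2.70 led these (limma adjusted p = 0.00160, 0.00179 and 0.00782). None of these 8 differed by 1 between KO and WT in its change with stimulation (all probe sets 5.36% higher and 7.18% lower). Among leukocyte adhesion genes 2 of 9 rose, Vcam1, an endothelial-type adhesion molecule, by 4.12 and Itgal, the LFA-1 chain that binds ICAM-1, by 3.08 (limma adjusted p = 0.00252 and 0.00429). Itgal was at 143 and 1839 in WT, 226 and 1579 in KO and 255 and 1724 in KI cells, so that both the receptor chain and its ligand gene Icam1 were higher in every stimulated sample. Of the other costimulatory ligands and receptors 6 passed the floor and 0 passed the test. Tnfsf9, the ligand of 4-1BB, had 57.5 and 359 in WT, 68.5 and 265 in KO and 198 and 292 in KI cells (log2 change 1.29 with the floor, limma adjusted p = 0.0707).

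Among dendritic cell maturation genes 8 of 17 rose (all probe sets 5.03%), with a median log2 change of 1.17. The 3 largest were Il12b, the p40 subunit of interleukin 12, by 5.60, Ccl22, a chemokine for regulatory and helper T cells, by 4.34, and Marcksl1, an actin-associated protein, by 3.06 (limma adjusted p = 0.00177, 0.00357 and 0.00686). In this part of the list the change was higher in KO than in WT by at least 1 for 7 genes and lower for 3 (all probe sets 5.36% and 7.18%). The 7, named after their values were seen, were Stat4, Il15, Ccl22, Ccr7, Tnfrsf11a, Il12b and Batf3, and the 3 were Il12a, Cd1d1 and Marcksl1. Ccl22 reached 3049 in stimulated WT, 11070 in KO and 6199 in KI cells. Ccr7, the receptor that takes mature dendritic cells to lymph nodes, reached 436, 1897 and 335, from untreated signals of 85.2, 140 and 78.5. Stat4, a transducer of interleukin 12 signals, was at 100 in stimulated WT, 381 in KO and 118 in KI cells. The stimulated KO array thus had the highest signal for Ccl22, Ccr7 and Stat4, as it had for Cytip and Fscn1, and for Ccr7 and Cytip the stimulated KI array was below the WT one. In bulk RNA, more cells of a type and more RNA per cell cannot be told apart.

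Markers of other cells were measured beside these values. Of 10 dendritic cell markers 6 were on the array and 4 passed the floor. Their summed signal was 1195 and 1894 in WT, 1304 and 3638 in KO and 915 and 1539 in KI cells, and it was highest on the stimulated KO array, as were Cytip and Fscn1. Ccr7 and Ly75 are in this list and among the maturation genes above. Within the list, Ccr7 and Xcr1, a chemokine receptor of cross-presenting dendritic cells (775 in stimulated KO, 250 in WT and 312 in KI), were high on the stimulated KO array. Ccr7 alone gave 1897 of the 3638 there. Ly75 did not follow the sum, at 760, 675 and 702 in stimulated WT, KO and KI cells. Flt3, a growth factor receptor of dendritic cell precursors, was lower on each stimulated array (746 and 414, 756 and 262, 375 and 138), and Zbtb46 and Itgae were under the floor on all 6. B cells, which carry CD40, CD80 and CD86, are another source in an exudate. Of 7 measured B cell markers 6 passed the floor, and the summed signal of the 7 was 4069 and 1847 in WT, 3748 and 1852 in KO and 1448 and 1158 in KI cells. It was thus lowest in KI cells, where untreated Cd40, Cd80 and Cd86 were also lowest, and it was lower on each stimulated array, where Cd40 and Cd86 were higher. The members of the list did not all follow its sum. Cd79a was at 1152, 1129 and 152 in untreated WT, KO and KI cells and at 910, 644 and 302 after stimulation, higher than untreated in KI cells alone, as was Blk. Cd22 went against the sum, with its highest signal in KI cells in both states (278, 361 and 552 untreated, 171, 159 and 229 stimulated). None of 4 measured NK cell and 2 eosinophil markers passed the floor, T cell markers had 2 of 7, with Cd3e, Cd3d and Cd3g under it, and mesothelial markers summed to between 377 and 808. The summed signals of fibroblast and of neutrophil markers were higher on both WT arrays than on any KO or KI array. The 4 fibroblast markers summed to 4371 untreated and 5274 stimulated in WT cells and to between 2191 and 2342 in KO and KI cells. The 8 neutrophil markers summed to 1754 and 1702 in WT, 903 and 811 in KO and 1080 and 594 in KI cells. Col1a2, Col3a1 and Dcn followed the fibroblast sum, and Camp the neutrophil sum. Against it, Col1a1 was lowest on the untreated WT array (304) and highest on the untreated KI array (693). S100a8 was at 507 and 556, and Ltf at 114 and 193, in untreated WT and KI cells. After stimulation S100a8 was at 1073 in WT, 277 in KO and 211 in KI cells. It alone gave 1073 of the 1702 of the neutrophil sum in stimulated WT cells. Mast cell markers summed to between 1175 and 2206, with WT the highest and KI the lowest in each state. The part of dendritic cells, B cells or these other cells in the genotype differences was not tested.

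**Figure D4:**
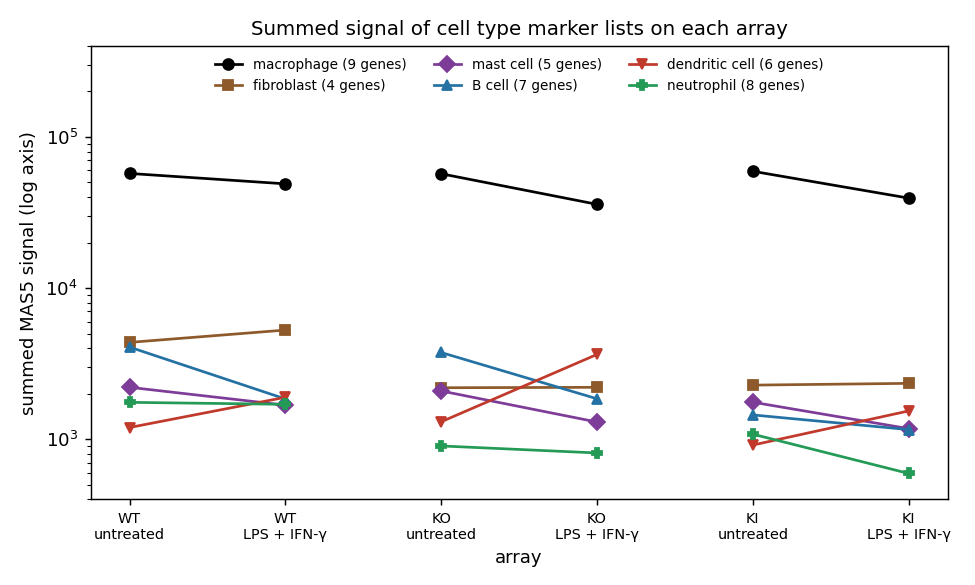
Summed signal (log axis, arbitrary MAS5 units) of marker lists of 6 cell types on each of the 6 arrays, with a line joining the untreated and stimulated array of a genotype. Within each list, the B cell sum is lowest on the KI arrays in each state and the dendritic cell sum is highest on the stimulated KO array at 3638.

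The genes with the most similar signals were sought by the root mean square difference between centred log2 profiles over the 6 arrays, which describes likeness on these arrays without a test. Signals under the floor were set to it. The flat untreated values of Ccnd2, Isg20, Plagl1, Reln and Mxd1, named below, were therefore made by the floor. Cd40 was nearest to Gbp3, an interferon-induced GTPase (0.37 log2), Ifit1 (0.38) and Usp18, which removes ISG15 from proteins (0.47). Cd86 was nearest to Slfn4 (0.26), Ifi47 (0.27) and Slfn1 (0.33), and Icam1 to Ms4a4c (0.33), Irf1 (0.36) and Isg20 (0.39). Irf1, the interferon-γ induced transcription factor, was at 886 and 9372 in WT, 995 and 8749 in KO and 760 and 8667 in KI cells. Cd83 was nearest to Ccnd2, a G1 cyclin (0.18), Ifi209 (0.21) and Pfkp, a phosphofructokinase (0.23). Pfkp was at 2228 in stimulated WT cells and 4581 and 4190 in KO and KI cells, the step that Cd83 showed.

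Genes near Fscn1 were Bag2, a co-chaperone (0.21), Edn1, the vasoconstrictor endothelin 1 (0.24), and Isoc1 (0.25). Genes near Cytip were Plagl1, a zinc-finger factor (0.22), Reln (0.25) and Mxd1, a MAX-binding repressor (0.26). Plagl1 was at 56.7, under the floor, in stimulated WT, 402 in KO and 109 in KI cells, from untreated signals also under the floor. Near Itgax were Bach1, a repressor of haem-responsive genes (0.31), Igf2r (0.36) and Sema4d (0.37). Bach1 was at 454 and 622 in WT, 1328 and 683 in KO and 3169 and 1670 in KI cells, so that the untreated KI array was the highest for Bach1 as for Itgax. Cd80, whose signals hardly moved, was nearest to Itga4 (0.07), Acsm2 (0.10) and Fyttd1 (0.10). Apart from Fscn1 with Cytip, the closest members were Cd86 with Icam1 (0.57) and Cd80 with Cytip (0.61), and the least alike were Cd40 and Itgax (3.05).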

How the data were processed

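The deposited values are linear intensities for 12488 probe sets on 6 arrays, made by the authors with MAS5, per the submitters' processing notes. Neither a MAS5 version nor its scaling target is given in the sources used here. RNA was extracted with Trizol and labelled from 6 µg, per the labels' protocols. Arrays were rescaled to a common mean without the lowest and highest 2% (deposited trimmed means 500.3 to 500.4), floored at the 40th percentile (97.99) and converted to log2. The 66 control probe sets and those under the floor on all arrays were left out, leaving 9344. Symbols came from the platform annotation, and probe sets with several symbols were not named. limma 3.58.1 in R 4.3.3 fitted stimulation and genotype additively with an intensity trend. The code was tested on simulated data. Named were the 8 genes, the 3 largest called changes in each part of the related list, the 3 genes nearest each of the 8, marker genes, and others where stated or beside a count. Itgam, Itgb2, Tnfsf9 and single markers were chosen after their values were seen. The 8 genes and the lists were chosen with earlier results of these data known. The labels number no replicates beyond 1 array per group. The alternatives were other floors, a pseudocount, no filter, median centring, quantile normalization, no trend, other probe sets, and arrays or genotypes left out.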

Additional observations from a re-analysis of the deposited data

Results flagged for a closer look

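Single arrays moved in opposite directions with stimulation for 3 of the 8 genes, and none of these differences was tested. The log2 change of Fscn1 was -0.10 in WT, 1.98 in KO and 0.36 in KI cells, a difference from WT of 2.08 for KO and 0.47 for KI. With median centring its WT change was 0.024, so that all 3 genotypes then moved the same way. Itgax had 0.998 in WT, -0.24 in KO and -1.22 in KI cells, a difference from WT of -1.23 and -2.21. Cd80, near the floor, had -0.14, 0.28 and 0.21, a difference from WT of 0.43 and 0.35, and its WT change was 0.067 with quantile normalization, the same direction as KO and KI.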

How the results depend on the processing

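The 4 rises with stimulation (Cd40, Cd86, Cd83 and Icam1) stayed past the threshold with the floor at the 20th or 60th percentile, a pseudocount of 50, median centring, quantile normalization, no trend, and without both arrays of any genotype. They ended, to 0 of 8, with no filter, where 12422 probe sets were tested, including 3078 constant at the floor and 49 rose (all 4 genes kept an unadjusted limma p under 0.05). Leaving out 1 array at a time gave 0 to 3 of 8, and 0 to 157 of all probe sets. With 1 array left out the stimulation change rests on the same genotypes as without both arrays, where the 4 calls stayed. Their loss therefore does not show that they rested on the array left out. Median centring moved the median log2 change of all probe sets from -0.12 to 0.04 and their calls from 470 higher and 562 lower to 676 and 429.

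Itgax's change with stimulation, -0.15, turned to 0.014 with median centring and 0.38 without both KI arrays, and ran from -0.73 to 0.38 with 1 array left out. Its KO against WT effect, 0.52, ran from -0.34 to 1.39 with 1 array left out.

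Several counts by size moved, and the cause was not tested. For KI against KO in the change with stimulation, 2 genes higher became 1 with the floor at the 60th percentile, the pseudocount and quantile normalization. For KO against WT, 2 genes lower became 1 with the pseudocount. In stimulated cells, 1 gene higher in KI than in KO became 2 with median centring and 0 with quantile normalization, and 1 higher in KI than in WT became 2 with median centring. In untreated cells, 1 gene higher in KI than in KO became 2 with median centring and quantile normalization. The 2 lower there became 1 with median centring, quantile normalization and the pseudocount and 0 with the floor at the 60th percentile, but 3 with the floor at the 20th (Cd80, -1.05). For KI against WT in the change with stimulation, 3 genes higher became 2 with the floor at the 60th percentile and with quantile normalization. The gene lower in untreated KI than in WT (1) became 0 with those same 4 settings. With quantile normalization 1 gene, against 0, was lower in untreated KO than in WT. The numbers of genes higher in KO than in WT by size, 4 of 8 in the change with stimulation and 4 in stimulated cells, did not change under any scaling, floor, filter or pseudocount run, except for 3 in stimulated cells with quantile normalization. No paired analysis was possible because each group has 1 array and the labels number no replicates.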
